A study of Mus musculus with 8 samples.

Results

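The thioredoxin and peroxiredoxin system was examined as a set of 10 genes, chosen by gene name, namely Txn1 and Txn2, the reductases Txnrd1 and Txnrd2, and the peroxiredoxins Prdx1, Prdx2, Prdx3, Prdx4, Prdx5 and Prdx6. All 10 had a value among the 20172 genes of the table, and all 10 were among the 13990 genes that were tested. RNA was sequenced from splenic regulatory T cells (Tregs) of Foxp3 YFP-cre (Foxp3 CreYFP) mice, which express a yellow fluorescent protein (YFP) and Cre from the Foxp3 locus. CD4 cells positive for YFP were sorted into a TNFR2+ and a TNFR2- population, with about 100000 cells and 1 library per sample and 4 libraries (replicates 1 to 4) per population. Both populations carried the same reporter allele and had received no treatment that the sources used here name. The mice of the study were 8 to 12 weeks old and of both sexes per its methods, while the series' labels name females. Of 6 listed sex genes 4 had a value, and 2 of these are at odds with a label of females only. They are the Y-linked genes Kdm5d (131 to 195 normalized counts in TNFR2+ and 122 to 257 in TNFR2- libraries) and Uty (72.2 to 172 and 85.8 to 212), above 0 in all 8 libraries. The others were Xist, the RNA of the inactive X chromosome (16369 to 18154 and 10228 to 13795), and Tsix (27.1 to 46.2 and 14.9 to 40.5). Whether reads from other genes were counted for Kdm5d and Uty was not tested. Xist was higher in TNFR2+ Tregs (log2 fold change 0.52, limma with Benjamini-Hochberg adjusted p = 0.00773), Kdm5d and Uty were not called (0.04 and -0.15, limma adjusted p = 0.957 and 0.838), and the part of sex in the results was not tested. The 4 libraries of a population are not described as single mice, pools or preparations, so the p-values measure the spread between these libraries, which may be technical.

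Thioredoxins are small proteins that reduce disulfide bonds in other proteins, and thioredoxin reductases, which are selenoproteins, recharge them with electrons from NADPH. Peroxiredoxins destroy hydrogen peroxide with a reactive cysteine, and most of them are then reduced by thioredoxin, so the enzymes form a single chain from NADPH to peroxide. The chain exists in the cytosol (Txn1, Txnrd1, Prdx1, Prdx2) and in mitochondria (Txn2, Txnrd2, Prdx3), while Prdx5 is found in several compartments, Prdx4 in the endoplasmic reticulum, and Prdx6 is mostly cytosolic and is reduced by glutathione rather than thioredoxin. In T cells the system also supplies electrons to ribonucleotide reductase, which makes the building blocks of DNA.

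Of the 10 genes, 2 were higher in TNFR2+ Tregs, the cytosolic thioredoxin Txn1 and the cytosolic peroxiredoxin Prdx2, and 0 were lower (limma with Benjamini-Hochberg adjustment over all genes tested, threshold 0.05). Of all 13990 genes tested, 7.91% were called, with 4.52% higher and 3.39% lower in TNFR2+ Tregs. An unadjusted p under 0.05 was found for the same 2 members and for 23.0% of all genes. The other 8 genes had adjusted p-values between 0.245 and 0.809. The log2 fold change of TNFR2+ over TNFR2- Tregs was above 0 for 9 of the 10 genes, with a median of 0.42, against 49.3% of all genes and a median of -0.01. For 4 genes the libraries of the groups did not overlap (3 higher and 1 lower in TNFR2+ Tregs), and the groups did not overlap for 15.4% of all genes tested (8.08% higher and 7.29% lower). In bulk samples, a smaller share of cells that express a gene and less RNA per cell cannot be told apart.

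Promoter sequences are shown for 4 members, Txn1 and Prdx2 because they were called together, and Prdx1 and Txnrd1 because their windows held the core of an antioxidant response element, the site through which NRF2 acts on its targets. They come from RefSeq (GRCm38.p6, the build of the files) and run 5′ to 3′ on the strand of the gene. Each begins 250 bases before the RefSeq start and stops before the first base of an annotated transcript in the window, which leaves out the last 35 bases of that window for Prdx2, 55 for Prdx1, 27 for Txnrd1 and 0 for Txn1. Capitals mark the match to TGACNNNGC, here on the reverse strand, and the first pair of sequences holds none.
Txn1, minus strand of chr4:57956412-57956661: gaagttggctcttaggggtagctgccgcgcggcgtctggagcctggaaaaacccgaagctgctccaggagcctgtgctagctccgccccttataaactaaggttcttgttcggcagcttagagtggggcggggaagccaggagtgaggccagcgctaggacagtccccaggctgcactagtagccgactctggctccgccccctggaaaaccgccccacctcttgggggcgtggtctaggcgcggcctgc
Prdx2, plus strand of chr8:84969372-84969586: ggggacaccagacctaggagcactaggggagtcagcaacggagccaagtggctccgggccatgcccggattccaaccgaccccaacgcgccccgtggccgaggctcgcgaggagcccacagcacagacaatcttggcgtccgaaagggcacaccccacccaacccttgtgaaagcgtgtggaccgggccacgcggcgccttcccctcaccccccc
Prdx1, plus strand of chr4:116685349-116685543: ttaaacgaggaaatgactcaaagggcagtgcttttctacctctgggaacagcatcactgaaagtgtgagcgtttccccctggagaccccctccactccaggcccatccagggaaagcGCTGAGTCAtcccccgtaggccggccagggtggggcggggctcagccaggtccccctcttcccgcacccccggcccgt
Txnrd1, plus strand of chr10:82858956-82859178, the start numbered 2 of the gene's 3: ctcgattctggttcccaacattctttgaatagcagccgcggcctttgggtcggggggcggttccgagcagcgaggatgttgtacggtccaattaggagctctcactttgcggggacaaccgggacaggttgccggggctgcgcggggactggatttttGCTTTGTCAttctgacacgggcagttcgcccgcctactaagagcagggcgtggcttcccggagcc

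The whole windows of 250 bases before the RefSeq start, including the bases not printed, were searched on both strands for 6 motifs in 9 members, those with an entry in the promoter table. Positions are those of the first base of a match on the strand of the gene, counted back from the RefSeq start. The core TGACNNNGC was found in Prdx1, 133 bases before that start, and in Txnrd1, 92 bases before it, and in 10.2% of all 32851 promoters. In Prdx1 it overlapped a match to the AP-1 letters TGANTCA (6.7% of promoters), which occurred 131 and 237 bases before the start. The Txn1 window held an NF-kB-like match, GGGA and CC with any 4 bases between them (17.6% of promoters), 93 bases before the start. It also held TATAAA (12.4% of promoters) 160 bases before the start. Prdx3, which was not called, held the same pair of motifs, 145 and 239 bases before its start. Prdx1, also not called, held TATAAA 29 bases before its start. The Prdx2 window held none of the 6 motifs, the others being CACGTG (6.0% of promoters) and CCAAT (33.8% of promoters), and 69.2% of the bases in its window were G or C, compared with 64.0% for Txn1 and a median of 52.4% for all promoters. As the Prdx2 window held none of these 6 motifs, the 2 members that were called could share none. Neither of the 2 members with the antioxidant core was called, and a link between motifs and changes was not tested. A match is a description of letters in a window and not of a bound site.

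Txn1 (ENSMUSG00000028367) encodes the cytosolic thioredoxin and lies on chr4:57943373-57956411 (GRCm38), with 5 exons in its longest coding transcript. Its normalized counts in TNFR2+ Treg replicates 1 to 4 were 284, 301, 187 and 232, and in TNFR2- Treg replicates 1 to 4 they were 64.2, 146, 98.1 and 107. Every TNFR2+ library was above every TNFR2- library. The means were 251 ± 51.9 and 104 ± 33.5 (SD, n = 4 each), and the log2 fold change was 1.30, or 2.46-fold (SE 0.29, 95% interval 0.67 to 1.93, limma with Benjamini-Hochberg adjusted p = 0.0150). The exact two-sided permutation test over the 70 relabellings gave p = 0.0286, the smallest it can give with these group sizes. The call was lost when TNFR2+ replicate 1 (log2 fold change 1.23, limma adjusted p = 0.0516) or TNFR2+ replicate 2 (1.21, limma adjusted p = 0.0605) was left out, while the direction stayed the same. The processed pseudogene Txn-ps1 matched Txn1 over 309 bases at 95.8% identity and had no value of its own. Any reads shared with it would make the level uncertain, which was not tested.

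Txn2 encodes the mitochondrial thioredoxin (chr15:77915047-77929006). Its normalized counts were 286, 305, 323 and 269 in TNFR2+ and 270, 292, 240 and 306 in TNFR2- libraries (replicates 1 to 4), so the groups overlapped. The log2 fold change was 0.10 (95% interval -0.30 to 0.49, limma adjusted p = 0.809), and its upper limit is below the lower limit of Txn1. The difference between the thioredoxins was tested as the log2 ratio of Txn1 to Txn2 within a library, which does not depend on how libraries are scaled. This ratio was -0.26 ± 0.36 in TNFR2+ and -1.46 ± 0.45 in TNFR2- Tregs (SD, n = 4 each), a difference of 1.20 with no overlap. The exact permutation test gave p = 0.0286, the smallest it can give with these group sizes. Adjusted over 3 ratios, this exact permutation p was 0.0857 and did not pass. A ratio at that smallest p can pass only if another ratio reaches it too, so this test cannot decide the difference.

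Txnrd1, the cytosolic thioredoxin reductase (chr10:82833951-82897712), had normalized counts of 545, 526, 439 and 487 in TNFR2+ and 424, 345, 453 and 493 in TNFR2- libraries. The groups overlapped, and the log2 fold change of 0.23 (95% interval -0.14 to 0.60, limma adjusted p = 0.477) did not pass the test. The gene Eid3 (1305 bases) lies within the span of Txnrd1 on the same strand, and its part in the Txnrd1 value was not tested. Txnrd2, the mitochondrial reductase (chr16:18426384-18479073), had normalized counts of 157, 138, 317 and 58.6 in TNFR2+ and 53.3, 83.5, 176 and 42.2 in TNFR2- libraries. Replicate 3 was the highest and replicate 4 the lowest in both groups, and the SD was 64.7% of the mean in TNFR2+ and 68.3% in TNFR2- Tregs, the widest relative spread of the 10 genes. Its log2 fold change was 0.89, but the interval ran from -0.23 to 2.01 (limma adjusted p = 0.335). The log2 ratio of Txnrd1 to Txnrd2 was 1.80 ± 1.05 in TNFR2+ and 2.47 ± 0.96 in TNFR2- Tregs, a difference of -0.67 (SD, n = 4 each, exact permutation p = 0.400).

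**Figure D1:**
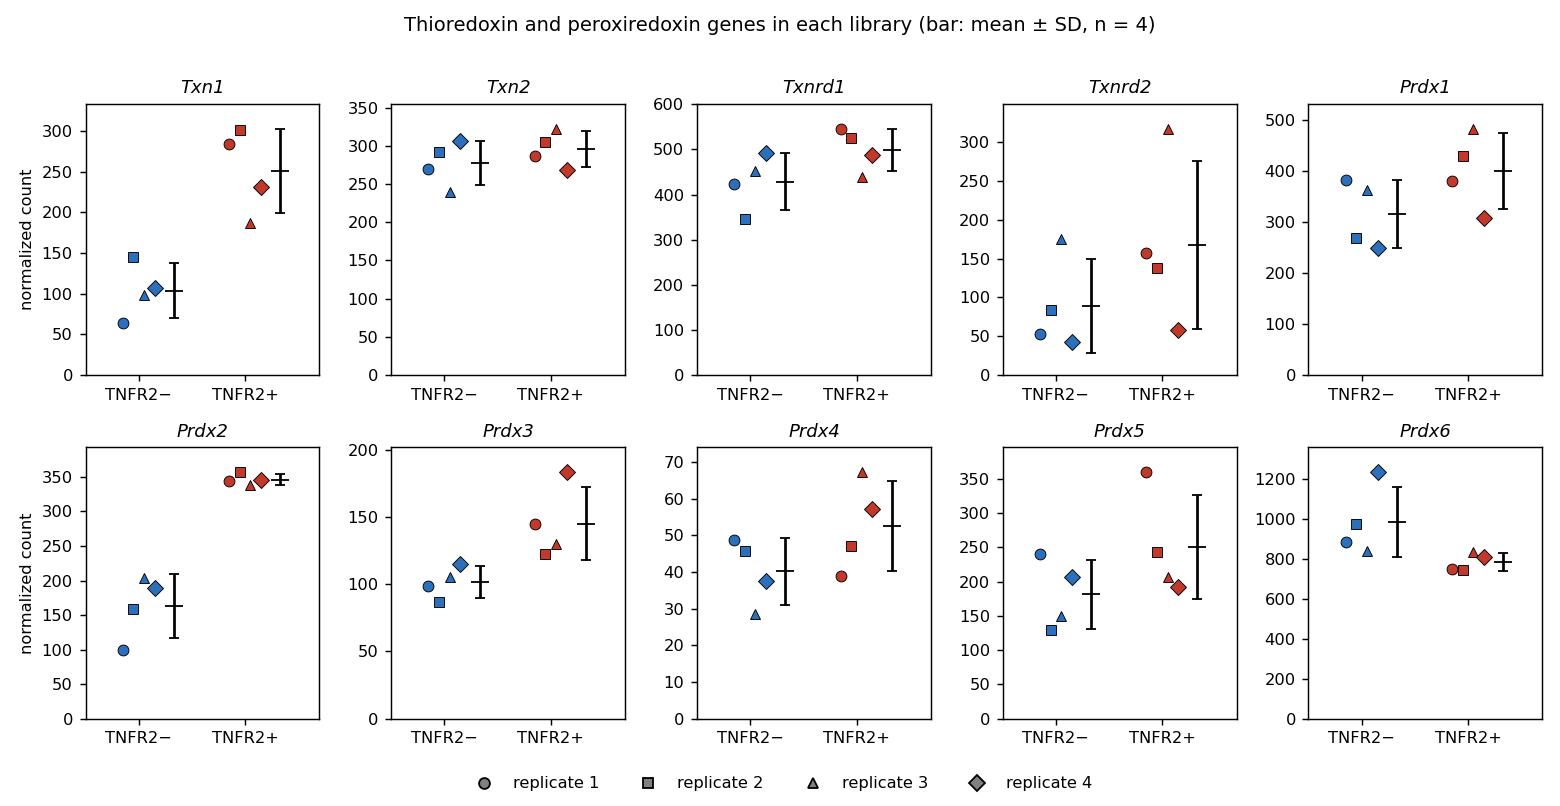
Normalized counts (linear axes from 0) of the 10 genes in the TNFR2- (blue) and TNFR2+ (red) libraries, with a symbol for each replicate number and a bar for the mean ± SD of 4 libraries. Txn1, Prdx2 and Prdx3 are higher in every TNFR2+ library, Prdx6 is lower in every one, and the other 6 genes overlap.

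Prdx2 encodes an abundant cytosolic peroxiredoxin of the typical 2-Cys class and lies on chr8:84969587-84974834. Its normalized counts were 344, 357, 338 and 345 in TNFR2+ libraries and 99.6, 159, 204 and 189 in TNFR2- libraries. All TNFR2+ libraries were above all TNFR2- libraries, and the means were 346 ± 7.92 and 163 ± 46.1 (SD, n = 4 each). The log2 fold change was 1.13, or 2.19-fold (SE 0.24, 95% interval 0.61 to 1.66, limma with Benjamini-Hochberg adjusted p = 0.0120, exact permutation p = 0.0286). The SD among TNFR2+ libraries was 2.29% of the mean, less than the 5.38% that counting alone would give at about 1 read per normalized count, while among TNFR2- libraries it was 28.3% against 7.83%. The closeness of the TNFR2+ values is thus tighter than the depth can resolve. The call was kept without any single library, with log2 fold changes of 0.91 to 1.26. The annotated span of Prdx2 shares 351 bases with that of Junb on the opposite strand, and Junb had far higher values, with means of 20920 in TNFR2+ and 23696 in TNFR2- Tregs (log2 fold change -0.18, limma adjusted p = 0.218). The libraries were stranded, and whether the quantification used the strand is not given in the sources used here. The processed pseudogene Tdpx-ps1 matched Prdx2 over 597 bases at 96.3% identity and had no value of its own, so the limit given for Txn1 holds here too. Red blood cells are rich in Prdx2, and the summed level of 2 erythroid markers (of 10 listed) was 17.1 to 70.7 in TNFR2+ and 1.63 to 43.3 in TNFR2- libraries, with Alas2 at 0 in 6 of the 8 libraries. The preparation of the cells included lysis of red cells, enrichment of CD4 cells and the sort of viable YFP+ cells. The part of red cells in the Prdx2 difference was not tested.

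Prdx1, the other cytosolic 2-Cys peroxiredoxin (chr4:116685544-116700822), had normalized counts of 381, 429, 483 and 307 in TNFR2+ and 383, 269, 363 and 249.8 in TNFR2- libraries. The groups overlapped, and the log2 fold change was 0.34 (95% interval -0.12 to 0.81, limma adjusted p = 0.369). The processed pseudogenes Gm21399 (98.4% identity) and Gm7204 (97.5%) matched Prdx1 and had no value, so the same limit holds. The log2 ratio of Prdx1 to Prdx2 was 0.19 ± 0.28 in TNFR2+ and 0.98 ± 0.66 in TNFR2- Tregs (SD, n = 4 each). The difference of -0.79 did not pass (exact permutation p = 0.0571, adjusted over 3 ratios 0.0857).

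**Figure D2:**
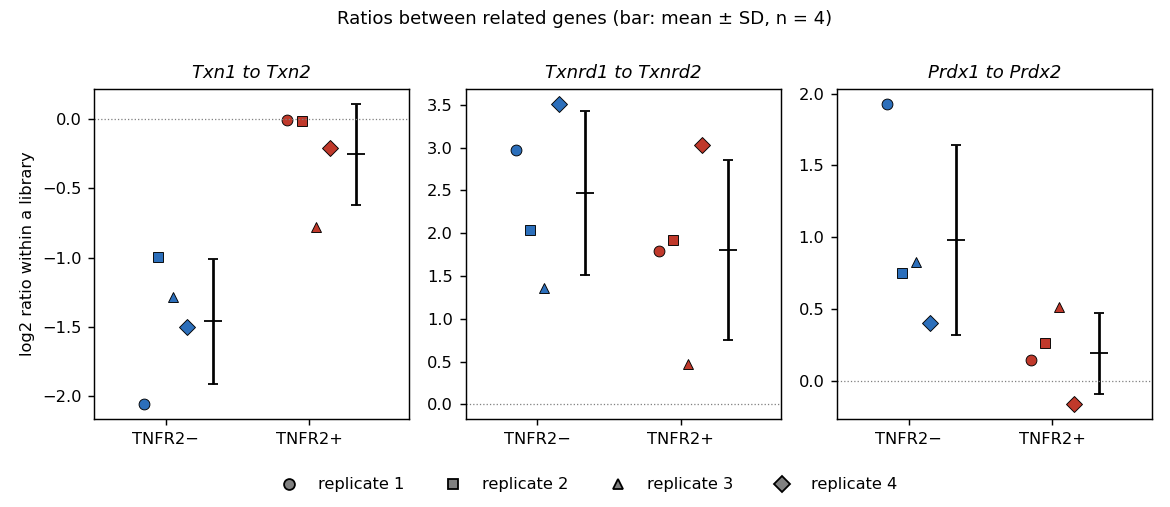
Log2 ratio within each library for the thioredoxins, the reductases and the cytosolic 2-Cys peroxiredoxins, with points for the 4 libraries of each population and bars for the mean ± SD. Only the ratio of Txn1 to Txn2 separates the groups, with means of -0.26 in TNFR2+ and -1.46 in TNFR2- Tregs. None of the 3 ratios passes after adjustment, and a ratio at the smallest possible p could pass only if another reached it too.

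Prdx3 is the mitochondrial 2-Cys peroxiredoxin (chr19:60864051-60874556). Its normalized counts were 145, 122, 130.1 and 184 in TNFR2+ and 98.6, 86.9, 106 and 115 in TNFR2- libraries. The groups did not overlap, yet the log2 fold change of 0.50 (95% interval -0.06 to 1.06) was not called (limma adjusted p = 0.277, exact permutation p = 0.0286). Prdx5, an atypical 2-Cys peroxiredoxin found in mitochondria, peroxisomes and cytosol (chr19:6906697-6910106), had 360, 244, 207 and 192 normalized counts in TNFR2+ and 239.7, 129.5, 150.5 and 206 in TNFR2- libraries. TNFR2+ replicate 1 was the highest library by far, and TNFR2+ replicate 2 (244) was just above the highest TNFR2- library (239.7). TNFR2+ replicates 3 and 4 lay within the TNFR2- range, and the log2 fold change was 0.46 (95% interval -0.13 to 1.05, limma adjusted p = 0.347). Prdx4, the peroxiredoxin of the endoplasmic reticulum (chrX:155323918-155340754), had the lowest counts of the 10 genes, with 38.8, 47.1, 67.3 and 57.2 in TNFR2+ and 48.7, 45.8, 28.6 and 37.6 in TNFR2- libraries. The groups overlapped, and the interval of its log2 fold change of 0.38 ran from -0.48 to 1.24 (limma adjusted p = 0.621).

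Prdx6, the 1-Cys peroxiredoxin that also has phospholipase activity (chr1:161240112-161251219), was the only member with a log2 fold change below 0. Its normalized counts were 749, 745, 835 and 810.1 in TNFR2+ and 884, 976, 838 and 1233 in TNFR2- libraries. The groups did not overlap, but the highest TNFR2+ library (835) and the lowest TNFR2- library (838) were almost equal. The log2 fold change of -0.31 (95% interval -0.64 to 0.02) was not called (limma adjusted p = 0.245, exact permutation p = 0.0286).

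**Figure D3:**
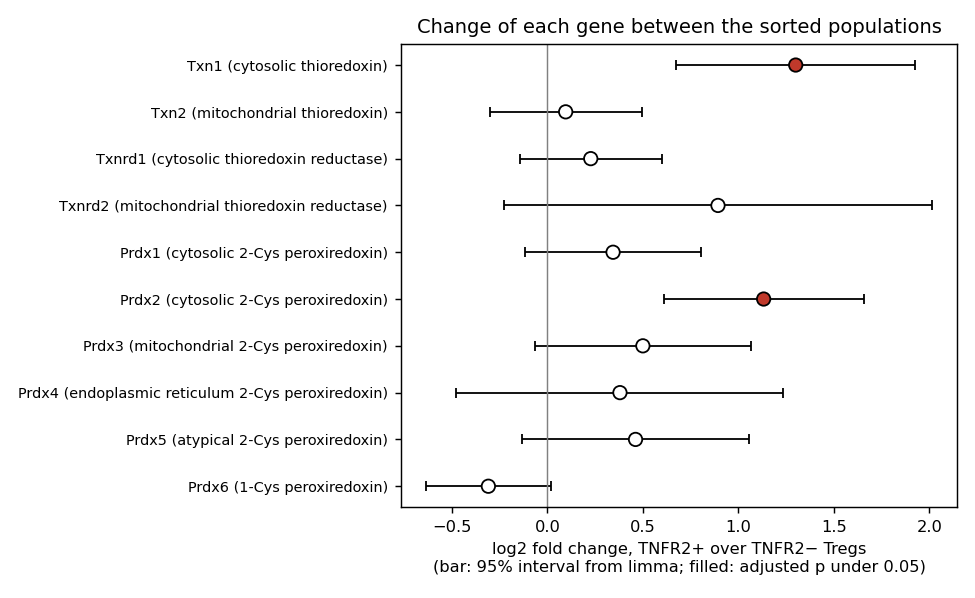
Log2 fold change (TNFR2+ over TNFR2- Tregs) of the 10 genes with its 95% interval from limma, where filled points mark an adjusted p under 0.05. The intervals of Txn1 (0.67 to 1.93) and Prdx2 (0.61 to 1.66) lie above 0, and those of the other 8 genes include 0.

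Levels between genes were set side by side per kilobase of the longest coding transcript. In TNFR2+ Tregs the order was Prdx6 (329 normalized counts per kilobase), Txn1 (239), Prdx2 (215), Prdx5 (199), Prdx1 (174), Txn2 (144), Txnrd1 (138), Prdx3 (98.3), Txnrd2 (58.4) and Prdx4 (53.1). In TNFR2- Tregs it was Prdx6 (412), Prdx5 (144), Prdx1 (138), Txn2 (135), Txnrd1 (118), Prdx2 (101), Txn1 (98.8), Prdx3 (68.8), Prdx4 (40.6) and Txnrd2 (30.9). Txn1 thus stood at place 2 in TNFR2+ and place 7 in TNFR2- Tregs, and Prdx2 at places 3 and 6. Neighbours in the order overlapped between libraries in 8 of 9 pairs in TNFR2+ Tregs, the exception being Prdx6 and Txn1, and in 7 of 9 pairs in TNFR2- Tregs, the exceptions being Prdx6 with Prdx5 and Prdx3 with Prdx4. The order depends on the transcript length assumed, and with the median length of the coding transcripts Prdx1 moved from place 5 to place 1 in TNFR2+ Tregs. By that length Txn1 stood at places 5 and 7 in TNFR2+ and TNFR2- Tregs, and Prdx2 at place 6 in both.

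Summed over the 10 genes, the normalized counts were 3193 ± 174 in TNFR2+ and 2683 ± 205 in TNFR2- Tregs (SD, n = 4 each), a ratio of means of 1.19, with the lowest TNFR2+ library (2941) below the highest TNFR2- library (2980). The 4 mitochondrial genes (Txn2, Txnrd2, Prdx3 and Prdx5, the last also found elsewhere in the cell) summed to 859 ± 127 and 649 ± 38.2 (SD, n = 4 each). None of these 4 genes was called. The 5 cytosolic genes (Txn1, Txnrd1, Prdx1, Prdx2 and Prdx6) summed to 2281 ± 73.9 and 1994 ± 190 (SD, n = 4 each). Within the peroxiredoxins, Prdx2 made up 17.5% ± 0.932 of the counts in TNFR2+ and 9.15% ± 2.63 in TNFR2- Tregs, and Prdx6 39.7% ± 2.48 and 54.8% ± 5.64 (SD, n = 4 each). These sums and shares rest on counts and so weight genes with long transcripts more. The share of Prdx1 was 20.2% ± 3.25 in TNFR2+ and 17.9% ± 4.57 in TNFR2- Tregs. In the TNFR2+ libraries the share of Prdx2 was larger and that of Prdx6 smaller, for which no test was made. As shares are parts of a whole, a smaller share need not mean a lower level, and Prdx6 itself was not called.

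Within the groups, the variation of the 10 genes from library to library was compared. Taken as deviations from the group means over 8 libraries, the 45 pairwise Pearson correlations of log2 values ran from -0.69 (Prdx4 with Txnrd1) to 0.70 (Prdx6 with Txn2), with a median of -0.04, and Prdx2 with Txn1 was at 0.58. By the same measure the genes most like Txn1 among 10244 were Psmd14 (0.98), A630001G21Rik (0.96) and Gtf2f2 (0.96). Those most like Prdx2 were Cep83 (0.99), Abhd6 (0.97) and Sqstm1 (0.96). None of these 6 genes was called between the populations. With 8 libraries and this many genes compared, high values arise readily, and the libraries share their depth and composition.

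The genes around the chain were described in 6 lists, of which 65 genes were tested. Of these, 9 were called, 6 higher and 3 lower in TNFR2+ Tregs (13.8%, against the 7.91% of all genes), with a median log2 fold change of 0.17. Among 13 regulators and partners of thioredoxin 3 were higher and 1 was lower. The lower one was Txnip (chr3:96557957-96561883), which encodes the protein that binds reduced thioredoxin and inhibits it. Its normalized counts were 1612, 1548, 1777 and 1871 in TNFR2+ and 3640, 3769, 3636 and 5287 in TNFR2- libraries. All TNFR2+ libraries were below all TNFR2- libraries, with means of 1702 ± 148 and 4083 ± 805 (SD, n = 4 each) and a log2 fold change of -1.25 (SE 0.14, limma with Benjamini-Hochberg adjusted p = 0.000352). The transcripts of Txnip and Txn1 therefore moved in opposite directions, and these libraries do not measure protein. The log2 ratio of Txn1 to Txnip was -2.78 ± 0.42 in TNFR2+ and -5.32 ± 0.50 in TNFR2- Tregs (SD, n = 4 each). This ratio was chosen after the values were seen and was not tested.

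The 3 regulators and partners that were higher were Glrx, the cytosolic glutaredoxin, Txnl1, a thioredoxin-like protein, and Sesn3, a sestrin. Glrx had 289, 393, 353 and 291 normalized counts in TNFR2+ and 109.9, 140.2, 240.4 and 129 in TNFR2- libraries (log2 fold change 1.15, limma adjusted p = 0.0170). The log2 fold changes of Txnl1 and Sesn3 were smaller, at 0.64 (limma adjusted p = 0.0419) and 0.51 (limma adjusted p = 0.0394), and each was called in only 1 of the 8 fits that left out a library. Glrx was called in 6 of them, but not without TNFR2+ replicate 2 (limma adjusted p = 0.0650) or replicate 3 (0.0537).

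Of 7 thioredoxin substrates 2 were higher and 0 lower, and both were subunits of ribonucleotide reductase. The large subunit Rrm1 had normalized counts of 608, 791, 632 and 598 in TNFR2+ and 279, 303, 351 and 346 in TNFR2- libraries, with no overlap (log2 fold change 1.03, limma adjusted p = 0.00250). The small subunit Rrm2 had 183, 175, 148 and 123 against 117, 40, 46.6 and 23.4, again with no overlap (log2 fold change 1.68, limma adjusted p = 0.0307). Rrm2b, the other small subunit in the list, overlapped between the groups and was not called (log2 fold change -0.23, limma adjusted p = 0.714). Rrm1 was called in all 8 fits that left out a library and Rrm2 in 3 of them, those without TNFR2- replicate 1, TNFR2- replicate 3 or TNFR2+ replicate 4 (the others gave limma adjusted p of up to 0.0893). Ribonucleotide reductase is made in dividing cells, and the summed level of 17 markers of dividing cells was 11437 to 16918 in TNFR2+ and 5355 to 7316 in TNFR2- libraries, with 10 of the 17 called higher and 0 lower. The part of dividing cells in the differences of Txn1, Prdx2, Rrm1 and Rrm2 was not tested.

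**Figure D4:**
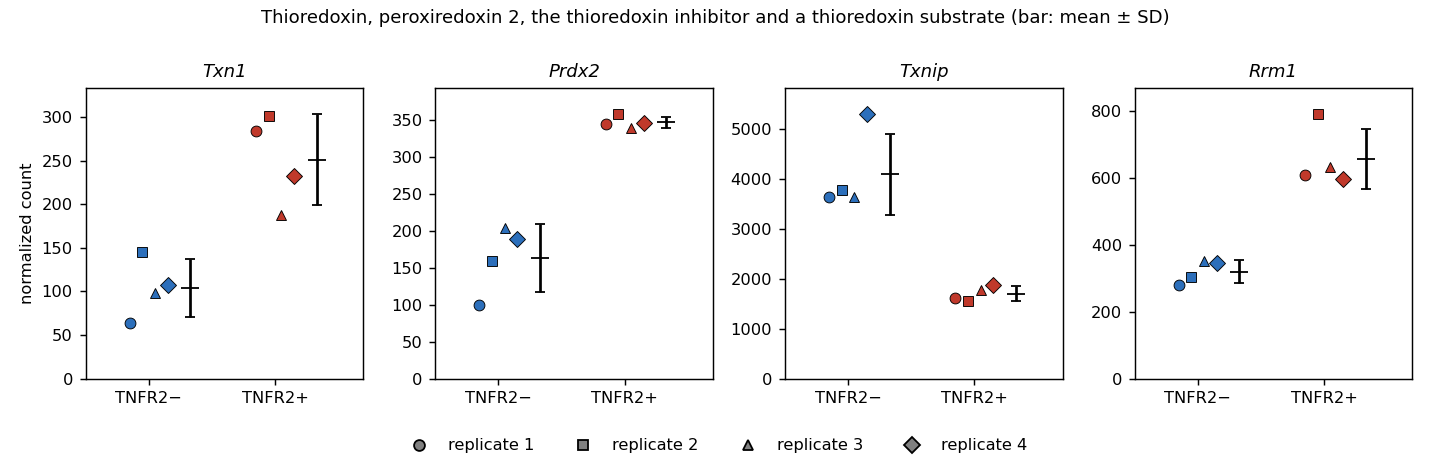
Normalized counts (linear axes from 0) of Txn1, Prdx2, the thioredoxin inhibitor gene Txnip and the substrate gene Rrm1 in TNFR2- (blue) and TNFR2+ (red) libraries, with the mean ± SD of 4 libraries. Txn1, Prdx2 and Rrm1 are higher and Txnip is lower in every TNFR2+ library.

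The remaining lists held few calls. Of 17 thioredoxin-fold oxidoreductases of the secretory pathway 1 was higher, Tmx3 (log2 fold change 0.87, limma adjusted p = 0.00556), a disulfide isomerase of the endoplasmic reticulum membrane, and 0 were lower. Of 9 genes of NADPH supply, on which the reductases depend, 1 was lower, the mitochondrial malic enzyme Me2 (-0.96, limma adjusted p = 0.0316, called only without TNFR2- replicate 3 when a library was left out), and 0 were higher. Of 11 genes of NRF2 control 1 was lower, the small Maf protein Maff (-0.89, limma adjusted p = 0.00594), which pairs with NRF2 on antioxidant response elements, and 0 were higher. Of 8 genes for the synthesis of selenoproteins, the class to which the reductases belong, 0 passed in limma and 0 had an unadjusted p under 0.05. The lowest p-values there were those of the selenophosphate synthetases Sephs2 (log2 fold change -0.49, limma adjusted p = 0.289) and Sephs1 (-0.43, limma adjusted p = 0.470).

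**Figure D5:**
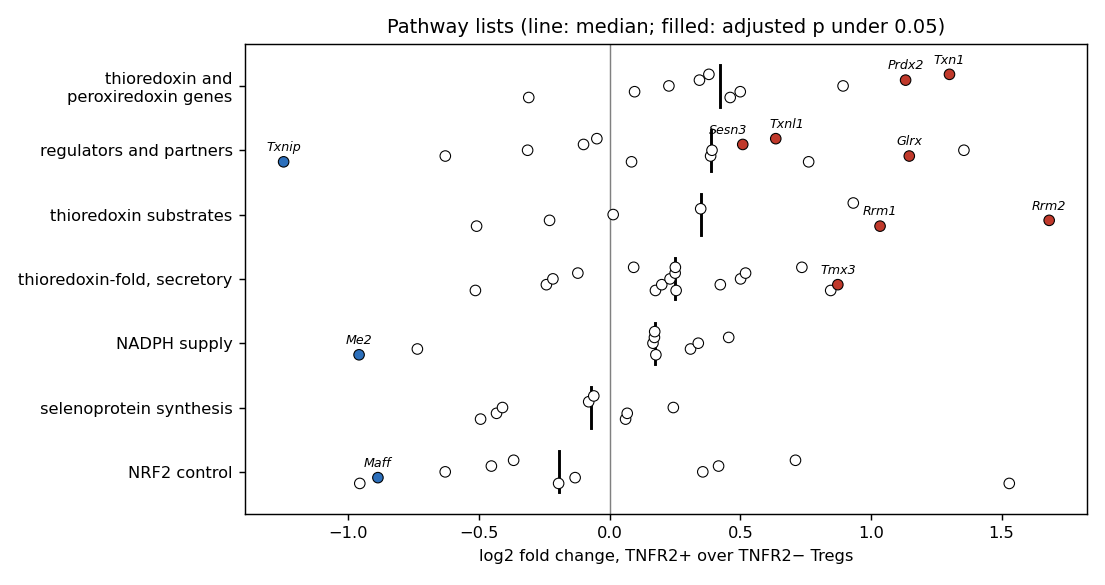
Log2 fold change (TNFR2+ over TNFR2- Tregs) of each tested gene in the thioredoxin and peroxiredoxin set and in the 6 surrounding lists, with a vertical line at the median of each list and filled points for an adjusted p under 0.05. The medians run from 0.42 in the set of 10 genes to -0.20 in the NRF2 control list, and the named points are the genes called.

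The sort was visible in Tnfrsf1b, which encodes TNFR2, at 2501 ± 544 in TNFR2+ and 1321 ± 168 normalized counts in TNFR2- Tregs (SD, n = 4 each, log2 fold change 0.90, limma adjusted p = 0.00449). All 8 Treg markers had values, with sums of 28042 to 31971 and 21054 to 25646 in the TNFR2+ and TNFR2- libraries. Of these 4 were called higher in TNFR2+ Tregs and 0 lower. Foxp3 (log2 fold change -0.23, limma adjusted p = 0.232) and Il2ra (-0.34, limma adjusted p = 0.0860) were not called. Sums were lower for B cells (6 of 8 markers with a value, 93.1 to 143 and 40.8 to 190), myeloid cells (5 of 12, 35.1 to 87.7 and 49.4 to 101), cytotoxic lymphocytes (5 of 8, 110 to 196 and 48.5 to 132), platelets (2 of 6, 116 to 335 and 417 to 650.1) and plasma cells (5 of 6, 1700 to 2504 and 1289 to 1747, a list that includes genes Tregs also use). In these lists Nkg7 (cytotoxic, log2 fold change 3.19, limma adjusted p = 0.00927) and Prdm1 (plasma cells, 1.53, limma adjusted p = 0.0210) were called higher in TNFR2+ Tregs. Itgb3 (platelets, -1.78, limma adjusted p = 0.000514) was called lower. The part of other cells in the results was not tested. The sum of a library's normalized counts ranged from 9576920 to 11492762, and 1 read was worth about 0.85 to 1.16 normalized counts. Scaling libraries to equal sums without mitochondrial genes, Gm26917 and Gm42418 moved the calls over all genes from 633 higher and 474 lower to 834 higher and 358 lower, and the calls of the 10 members stayed the same.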

How the data were processed

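Stranded total RNA libraries of 4 TNFR2+ and 4 TNFR2- Treg samples were sequenced by the authors, who, per the labels and methods, checked and trimmed reads with FastQC 0.11.8 and Trim Galore, quantified the Ensembl GRCm38 transcriptome with Salmon 1.3.0 and normalized gene counts with DESeq2 1.28 in R 4.0. The deposited values are this normalized signal per gene, not whole numbers. How transcripts were summed to genes is not given in the sources used here. In each library 69.7% to 96.5% of the low values of long genes with 1 transcript were within 0.1 of whole multiples of the value of 1 read. Depth was estimated from it at 9073000 to 12110000 reads, but reads could not be recovered for genes with several transcripts, and no model of counts was fitted.

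The scale was log2(normalized count + 1), which understates changes of low genes. Tests used limma 3.58.1 (R 4.3.3, intensity trend, two-sided, Benjamini-Hochberg adjustment, threshold 0.05) on genes averaging at least 10, in place of the count model of the study. Single genes and the 3 ratios also had an exact permutation test, two-sided, with 70 relabellings (scipy 1.17.1), ratios with adjustment over 3. Of 20172 identifiers 20008 matched GENCODE annotation of GRCm38, which gave symbols, positions and lengths, and RefSeq gave the promoters. Copies were searched with blastn 2.17.0 (95% identity over at least 100 bases and 50% of the shorter of both transcripts), with hits for Txn1 (1), Prdx1 (2) and Prdx2 (1). The fit was tested on simulated data. Plots were drawn with matplotlib 3.10.9 in python 3.11.15.

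Named were all 10 members, Tnfrsf1b, every called gene of a list (at most 4 per list) or else its 2 lowest p-values, and for called members the 3 genes of mean at least 50 with the most similar deviations. The members, lists and tests were chosen with earlier results of these data known, and the lists give no independent support. Alternatives were the pseudocount, the filter, the scaling, the moderation, library weights, a replicate block and leaving out each library.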

Additional observations from a re-analysis of the deposited data

Results flagged for a closer look

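Among 46 groups of 4 libraries (the 10 members, the called list genes and others named, each population apart), 2 held a library far from the other 3 by Dixon's test at 95%, which chance alone gives in about 1 in 20 groups. Txnip was at 5287 normalized counts in TNFR2- replicate 4, against 3636 to 3769 in the other TNFR2- libraries, and its fall in TNFR2+ Tregs was still called in limma without that library. Me2 was at 88.4 normalized counts in TNFR2+ replicate 3, against 134 to 144 in the other TNFR2+ libraries. No library of a member of the thioredoxin and peroxiredoxin set stood apart in this way.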

How the results depend on the processing

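Prdx2 kept its call in all 10 alternative settings (limma adjusted p 0.00647 to 0.0473) and without each library (0.00771 to 0.0429). Txn1 kept its direction in all of them, with log2 fold changes of 1.23 to 1.39 across settings and 1.09 to 1.48 without a library, but was at 1.30 with limma adjusted p = 0.0513 when the moderation had no intensity trend, which left 1 member called. Leaving out a library left 1 to 2 members called. The other 8 members kept their direction and were not called in any setting in which they were tested (Prdx4 was not tested at a mean of at least 50). Without the trend the calls over all genes fell to 465 and those of the lists to 4. Leaving out a library gave 636 to 1324 calls over all genes, with 711 without TNFR2- replicate 2, 636 without TNFR2+ replicate 2 and 693 without TNFR2+ replicate 3, and 4 to 8 list genes. The causes of these shifts were not tested, beyond the smaller number of samples. With the replicate number as a block there were 1183 calls, no call of a member changed (Txn1 limma adjusted p = 0.0207, Prdx2 0.0185), and Sesn3 was lost (0.0512). Same-numbered samples did not deviate together over all genes (correlations of -0.0386 to 0.000542). This cannot decide whether they came from the same mice or sort, which the sources used here do not give. The exact permutation tests of the ratios cannot go under p = 0.0571 without a library or 0.125 within replicate numbers. Depth limits Prdx4 most, at 28.6 to 67.3 normalized counts.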
